A study of Mus musculus with 8 samples.

Results

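The genes described here mark the subfields of the mouse hippocampus. The set holds 34 listed genes, each mapped through the RefSeq accession of its array probes, of 20660 genes named on the array. It holds 11 markers of the dentate gyrus (DG), 7 of CA1, 6 of CA2, 6 of CA3, 2 of the subiculum, and *Crym* and *Zbtb20*, which were assigned to no single subfield. Where a gene had several probes, the probe brightest in Cy5 stood for it.

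The animals were male Muta Mouse, a transgenic strain that carries a bacterial reporter gene for mutation assays, aged 9 weeks. BaP, a polycyclic aromatic hydrocarbon, was given by oral gavage in olive oil to 4 mice at 70 mg/kg bw per day over 3 days. The 4 control mice received the vehicle, and all were killed 24 hr after their last dose. RNA of the whole hippocampus of each mouse was labeled with Cy5 and hybridized with a universal mouse reference RNA in Cy3, so each value is a log2 ratio of hippocampus over reference. Every BaP-exposed and control mouse was on its own array, and all 8 arrays were on 1 slide. In whole tissue, fewer cells of a type and less RNA per cell cannot be told apart.

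Granule cells of the DG receive cortical input and send mossy fibers to the pyramidal cells of CA3. The latter project to CA1, which feeds the subiculum, the main output of the hippocampus. CA2 lies between CA3 and CA1 and is known for its part in social memory. Each subfield has its own set of expressed genes, and a dissected hippocampus holds all of them in proportions that depend on the dissection.

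Sample titles and source names disagree about the group for 4 of the 8 arrays, those of mice 3 and 4. The titles were used, since the numbers of the mice run with them. Outlier spots numbered 1483 for control mouse 1 and 310 to 371 for the others. Pearson correlations between arrays of the same group, across probes, were 0.976 to 0.989. Probes with Cy5 signals well above background on 4 or more arrays were tested, 32600 of 55681.

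Of the 34 markers, 32 were tested. The exceptions were *Glis3*, a zinc finger factor of the DG list, whose brightest probe was well above background on 2 arrays, and *Iyd*, the iodotyrosine deiodinase of the CA3 list, on 0. The reference was exceeded in all 8 mice by 28 of the 32, among them markers of each subfield, and by *St18* in the 7 mice with a value. Only *Fn1* of the tested markers was below the reference in every mouse.

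At an adjusted p of 0.05 from limma and a fold change of 1.5, 0 of the 32 markers passed. Among all tested probes 3 passed, or 0.0092%. The lowest adjusted p of a marker was 0.324 from limma, for *Man1a*. In BaP-exposed mice 24 markers were higher and 8 lower, while 48.8% of all probes were higher. The median log2 difference, BaP minus control, was 0.19 over the markers and -0.0044 over all probes. With the arrays centered on their medians in place of loess, 28 markers were higher, but so were 82.8% of all probes, whose median then moved to 0.17.

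The markers were chosen with earlier results of these data known, so their shares are set beside those of all probes without a test. An unadjusted p of 0.05 or less from limma was found for 12 of the 32 markers (37.5%), against 8.77% of all probes. Of these, 9 markers were higher in BaP-exposed mice (4.53% of all probes) and 3 lower (4.23% of all probes). The gene-wise F test gave 5 such markers (8.22% of all probes), the fit without BaP mouse 2 also 5 (5.31%), and the fit without BaP mouse 4, 17 (10.7%). The groups did not overlap for *Maml2*, *Pou3f1* and *Man1a*, each higher in every BaP-exposed mouse, where 2.52% of all probes did so upward. Downward, 0 markers did so, against 2.55% of all probes. A difference of at least 1.5-fold was measured for *Dsp* and *Lct*, and for 1.02% of all probes. For 11 of the 32 markers the 95% interval of the difference lay within 1.5-fold in both directions. Standard errors ran from 0.073 to 0.37 on the log2 scale, with a median of 0.17, against 0.11 over all probes.

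**Figure D1:**
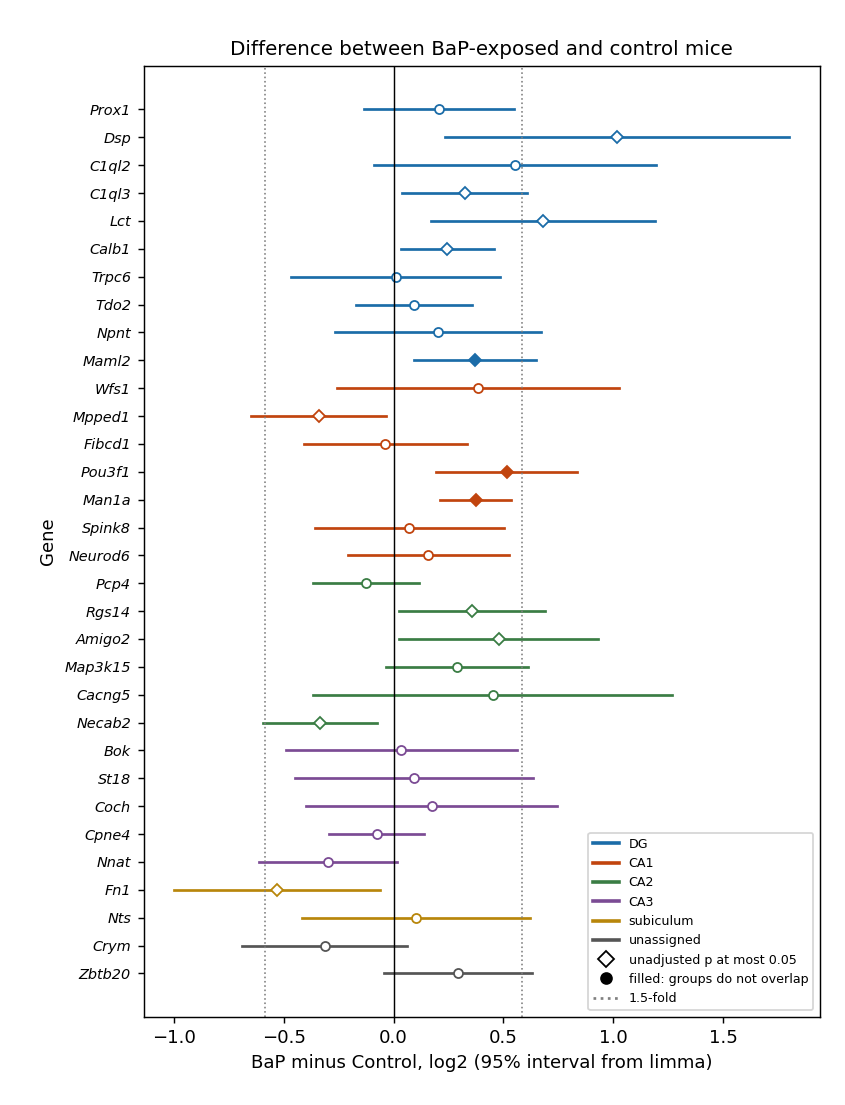
Log2 difference between BaP-exposed and control mice (x axis) for each of the 32 tested markers (y axis), colored by subfield, with the 95% interval from limma. The 10 DG markers all lie above 0, and the filled points, *Maml2*, *Pou3f1* and *Man1a*, are the markers whose groups did not overlap.

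All 10 tested DG markers were higher in BaP-exposed mice, by 0.011 to 1.02 on the log2 scale with a mean of 0.37. With the Cy5 channel alone *Npnt* was at -0.060, and with plain background subtraction *Trpc6* was at -0.24. An unadjusted p of 0.05 or less was found for 5 of them, and 0 passed the adjusted test. *Dsp* and *Lct* had the largest differences. *Dsp*, the desmosomal protein desmoplakin, had log2 ratios of 2.04, 1.63, 1.01 and 0.94 in control mice 1 to 4 and of 2.02, 3.04, 3.03 and 1.60 in BaP mice 1 to 4. BaP mice 2 and 3 stood about 1 log2 unit above the highest control mouse, while BaP mice 1 and 4 lay inside the control range. The difference was 1.02 (standard error 0.35, adjusted p = 0.509 from limma). A second *Dsp* probe was well above background on 0 arrays.

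*Lct*, which encodes lactase, had log2 ratios of 5.11, 4.59, 4.35 and 4.37 in the control mice and of 5.23, 5.69, 5.54 and 4.68 in the BaP-exposed mice. Again BaP mice 2 and 3 were highest, and only BaP mouse 4 fell among the controls. The difference was 0.68 (standard error 0.23, adjusted p = 0.502 from limma), and the exact permutation p, 2-sided, was 0.0571. *Maml2*, a coactivator of Notch signaling, was at 0.21, 0.51, 0.51 and 0.36 in the control mice and at 0.57, 0.89, 1.04 and 0.58 in the BaP-exposed mice. Its groups were separated by less than 0.1 log2 unit, with control mouse 3 nearest to BaP mouse 1. The difference was 0.37 (standard error 0.12, adjusted p = 0.503 from limma), with an exact permutation p, 2-sided, of 0.0286, the smallest that 4 mice against 4 allow. A dimmer *Maml2* probe, well above background on 5 arrays, gave -0.0073 (standard error 0.096).

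*Prox1*, the homeobox factor that sets and keeps granule cell identity, was at 2.15, 2.38, 2.37 and 1.99 in the control mice and at 2.46, 2.67, 2.58 and 1.99 in the BaP-exposed mice. BaP mouse 4 was level with the lowest control mouse, and the other 3 were above every control mouse. The difference was 0.21 (standard error 0.15, adjusted p = 0.703 from limma), with 0.12 when BaP mouse 2 was left out and 0.35 when BaP mouse 4 was. *Calb1*, the calcium buffer calbindin, was at 1.31, 1.44, 1.56 and 1.27 in control mice and 1.69, 1.69, 1.71 and 1.46 in BaP-exposed mice, a difference of 0.24 (standard error 0.095). *C1ql3*, a secreted synaptic protein of the C1q family, was at 5.89, 6.17, 6.20 and 5.71 in control mice and 6.38, 6.51, 6.23 and 6.14 in BaP-exposed mice, a difference of 0.32 (standard error 0.13). For both genes 3 BaP-exposed mice were above the control range and BaP mouse 4 was inside it.

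Its relative *C1ql2* was higher by 0.55 (standard error 0.29), a value that rests partly on control mouse 4, which had 1.39 where the rest of its group had 2.31 to 2.95. Without that mouse it was 0.23. The matrix protein nephronectin, *Npnt*, was higher by 0.20 (standard error 0.21), with a dimmer probe at 0.23 (standard error 0.099, adjusted p = 0.555 from limma). At that dimmer probe the groups did not overlap, but by little, with the highest control mouse at 0.24 and the lowest BaP-exposed mouse at 0.26 (exact permutation test, 2-sided, p = 0.0286). *Tdo2*, a tryptophan-degrading dioxygenase, was higher by 0.093 (standard error 0.12). The cation channel gene *Trpc6* was higher by 0.011 (standard error 0.21). At their brightest probes, the differences of *Npnt*, *Tdo2* and *Trpc6* were no larger than their standard errors. The groups overlapped at the brightest probe of these genes and of *C1ql2*.

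The 7 CA1 markers differed less evenly, with 5 higher, 2 lower and a mean of 0.16. *Man1a* had the widest gap between the groups among the 3 markers without overlap. *Man1a*, a Golgi mannosidase that trims N-glycans, was at 0.42, 0.49, 0.48 and 0.56 in the control mice and at 0.91, 0.82, 0.82 and 0.89 in the BaP-exposed mice. The mice of each group lay within a narrow range (SD 0.056 and 0.049, n = 4 each), and BaP mouse 4 did not fall among the controls. The difference was 0.37 (standard error 0.073, adjusted p = 0.324 from limma). It did not hold at the second *Man1a* probe, also well above background on all 8 arrays, which gave 0.067 (standard error 0.13), with control mouse 4 the highest of all at 1.21. Why the probes differ was not tested.

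*Pou3f1*, a POU-domain transcription factor, was at 4.85, 4.35, 5.00 and 4.87 in the control mice and at 5.46, 5.32, 5.29 and 5.05 in the BaP-exposed mice. BaP mouse 4 exceeded control mouse 3 by only about 0.05, so the groups were separated by little. The difference was 0.52 (standard error 0.14, adjusted p = 0.490 from limma). For both *Man1a* and *Pou3f1* the exact permutation p, 2-sided, was the smallest possible, 0.0286. Any gene without overlap between 4 mice and 4 gets this value, so it adds nothing to the lack of overlap.

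*Mpped1*, a metallophosphoesterase gene, was the CA1 marker with the largest difference downward. It was at 7.17, 7.17, 7.59 and 7.32 in the control mice and at 7.09, 6.81, 6.73 and 7.25 in the BaP-exposed mice, a difference of -0.34 (standard error 0.14, adjusted p = 0.544 from limma). BaP mouse 4 was inside the control range and the other 3 below it. *Wfs1*, the endoplasmic reticulum protein wolframin and a standard label of CA1 pyramidal cells, was at 2.75, 1.64, 2.14 and 1.57 in the control mice and at 1.74, 2.88, 2.59 and 2.42 in the BaP-exposed mice. The control values alone spanned more than 1 log2 unit, and the difference of 0.38 (standard error 0.29, adjusted p = 0.704 from limma) was within that spread. It was 0.23 without BaP mouse 2 and 0.62 without control mouse 1.

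*Neurod6*, a neuronal basic helix-loop-helix factor, was higher by 0.16 (standard error 0.17; 0.032 without BaP mouse 1 and 0.30 without BaP mouse 4) and *Spink8*, a protease inhibitor gene, by 0.072 (standard error 0.19). *Fibcd1*, a receptor for acetylated glycans, was at -0.038 (standard error 0.17). From Cy5 signals alone its value was 0.0033. In these 3 genes BaP mouse 1 was the highest mouse, as it was in 5 of the 7 CA1 markers, where it was highest for 10.8% of all probes. The CA1 mean was 0.34 within slide row 1, which holds mice 1 and 2 of each group, and -0.024 within slide row 2, which holds mice 3 and 4.

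**Figure D2:**
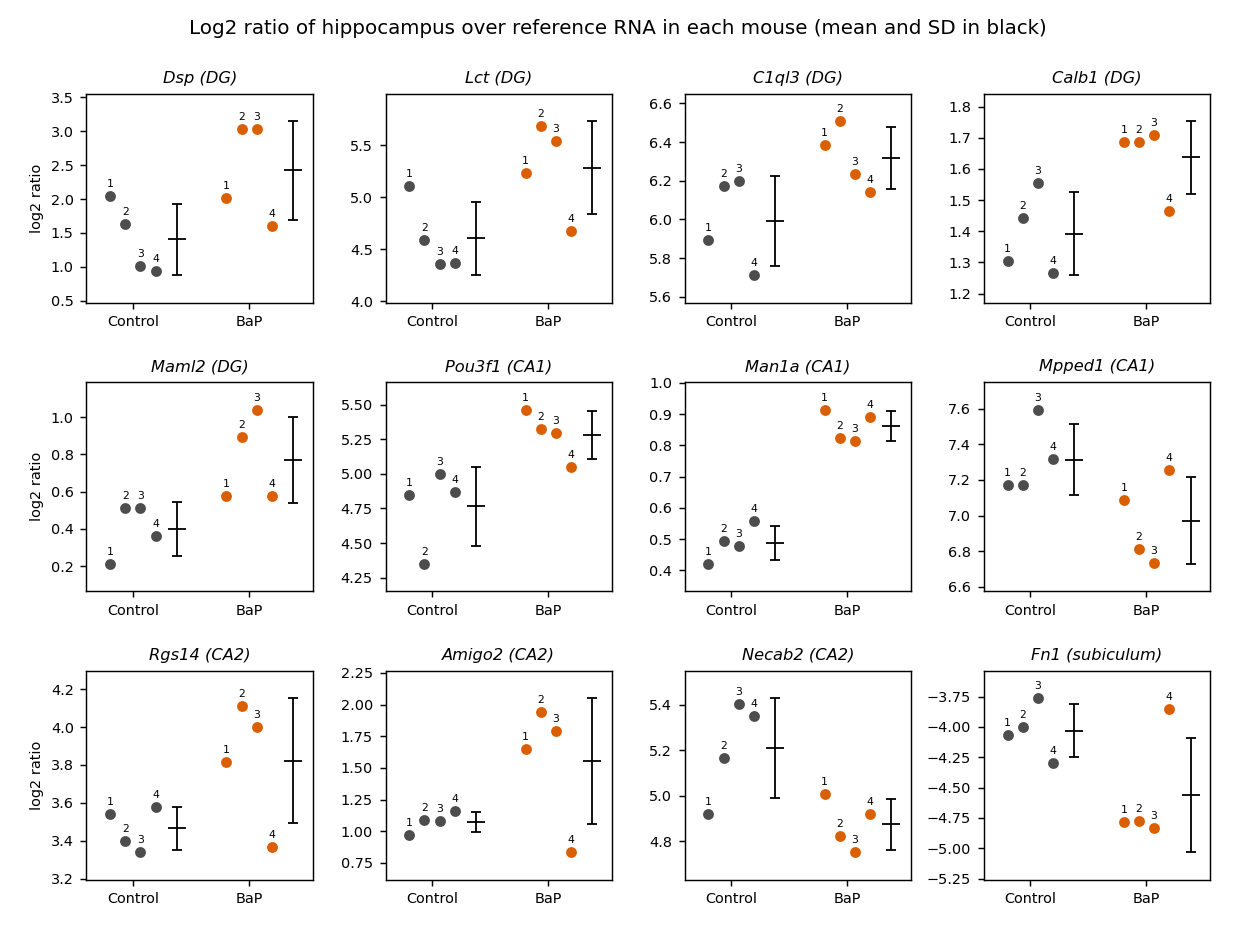
Log2 ratio of hippocampus over reference RNA (y axis) in the 4 control and 4 BaP-exposed mice, numbered, for the 12 markers with an unadjusted p of 0.05 or less from limma; bars give the mean and SD. BaP mouse 4 lies within or next to the control values in most panels, while *Maml2*, *Pou3f1* and *Man1a* show no overlap.

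Of the 6 CA2 markers, 4 were higher and 2 lower, with a mean of 0.19. The mean was 0.11 without BaP mouse 2 or without BaP mouse 3, and 0.30 without BaP mouse 4. *Rgs14*, a regulator of G protein signaling that restrains synaptic plasticity in CA2, was at 3.54, 3.40, 3.34 and 3.58 in the control mice and at 3.82, 4.11, 4.00 and 3.37 in the BaP-exposed mice. *Amigo2*, a leucine-rich repeat adhesion molecule, was at 0.97, 1.09, 1.08 and 1.16 in the control mice and at 1.65, 1.94, 1.79 and 0.83 in the BaP-exposed mice. For both genes BaP mice 1 to 3 were above every control mouse, and BaP mouse 4 was low, for *Amigo2* the lowest of all 8 mice. The differences were 0.36 (standard error 0.15, adjusted p = 0.549 from limma) for *Rgs14* and 0.48 (standard error 0.20, adjusted p = 0.556 from limma) for *Amigo2*. Without BaP mouse 4 they came to 0.51 and 0.72.

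*Necab2*, a neuronal calcium-binding protein, went the other way, at 4.92, 5.17, 5.40 and 5.35 in the control mice and 5.01, 4.82, 4.75 and 4.92 in the BaP-exposed mice. Its difference was -0.33 (standard error 0.12, adjusted p = 0.509 from limma), and only control mouse 1 lay among the BaP-exposed mice. *Cacng5*, an auxiliary subunit of AMPA receptors, was higher by 0.45, but with the widest standard error of the set, 0.37, since its values spanned 1.74 to 2.85 in control mice and 1.84 to 3.45 in BaP-exposed mice. It was 0.21 without BaP mouse 3 and 0.75 without BaP mouse 4. The kinase gene *Map3k15* was higher by 0.29 (standard error 0.15), and *Pcp4*, a calmodulin-binding protein, was lower by 0.13 (standard error 0.11). With the Cy5 channel alone, *Pcp4* was at 0.22.

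For CA3, 3 of 5 tested markers were higher and 2 lower, and for 0 of them was the unadjusted p 0.05 or less. Their mean was -0.015, and 0.054 with the deposited log2 ratios. With median centering it was 0.16 and with the Cy5 channel alone 0.014, both just below the medians of all probes under these settings, 0.17 and 0.015. Leaving out 1 mouse gave -0.070 (without BaP mouse 3) to 0.063 (without BaP mouse 4). *Bok*, a member of the Bcl-2 family, was at 0.86, 0.90, 0.48 and 1.33 in the control mice and at 1.30, 1.23, 0.90 and 0.26 in the BaP-exposed mice. The groups overlapped widely, with BaP mouse 4 below every control mouse, and the difference was 0.035 (standard error 0.24, adjusted p = 0.977 from limma). *Nnat*, the imprinted gene of the proteolipid neuronatin, was lower by 0.30 (standard error 0.14) and at a second probe by 0.35 (standard error 0.20). The copine gene *Cpne4* gave -0.077, 0.28 and -0.13 at its 3 probes. *Coch*, which encodes cochlin, was higher by 0.17 (standard error 0.26). *St18*, a zinc finger factor, was higher by 0.092 (standard error 0.24) over 7 mice, since its spot on the array of control mouse 1 was an outlier. The *St18* difference was 0.26 with outlier spots kept and 0.38 with the deposited log2 ratios.

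*Fn1* and *Nts* stood for the subiculum and differed in opposite directions, with a mean of -0.21 that ran from -0.43 without BaP mouse 4 to -0.072 without control mouse 3. With median centering the mean was 0.039, below the all-probe median of 0.17. *Fn1*, fibronectin, was at -4.06, -4.00, -3.77 and -4.30 in the control mice and at -4.78, -4.77, -4.84 and -3.86 in the BaP-exposed mice. BaP mice 1 to 3 were close to each other and below every control mouse, and BaP mouse 4 was among the controls. The difference was -0.53 (standard error 0.21, adjusted p = 0.538 from limma), and -0.76 without BaP mouse 4. *Fn1* is also a gene of blood vessels and fibroblasts. *Nts*, the neuropeptide neurotensin, was higher by 0.10 (standard error 0.23), with 1 high mouse in each group.

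*Zbtb20*, a zinc finger factor needed for the specification of hippocampal neurons, was at 2.84, 2.53, 2.54 and 2.49 in the control mice and at 2.90, 3.14, 3.09 and 2.46 in the BaP-exposed mice. BaP mice 1 to 3 were above the controls and BaP mouse 4 below them, and the difference was 0.29 (standard error 0.15, adjusted p = 0.600 from limma). *Crym*, a thyroid hormone-binding protein, was lower by 0.31 (standard error 0.17).

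The same mice recurred from gene to gene. BaP mice 1, 2 and 3 were above all 4 control mice at 14, 18 and 17 of the 32 markers, where this held for 19.4%, 24.3% and 22.3% of all probes. The same 3 mice were below all 4 control mice at 4, 6 and 6 markers (19.8%, 20.8% and 24.7% of all probes). BaP mouse 4 was above the controls at 4 markers (17.4% of all probes), inside their range at 20 (63.9% of all probes) and below them at 8 (18.7% of all probes). BaP mouse 2 was the highest mouse for 9 of the 31 markers with 8 values (13.4% of all probes), and control mouse 4 the lowest for 8 (12.5% of all probes). Among the 10 DG markers, BaP mouse 2 was highest for 5 and BaP mouse 3 for 3 (13.6% of all probes), and control mouse 4 was lowest for 5. Genes measured in 1 mouse share its dissection, RNA and array, so these counts describe mice and are not replicates.

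**Figure D3:**
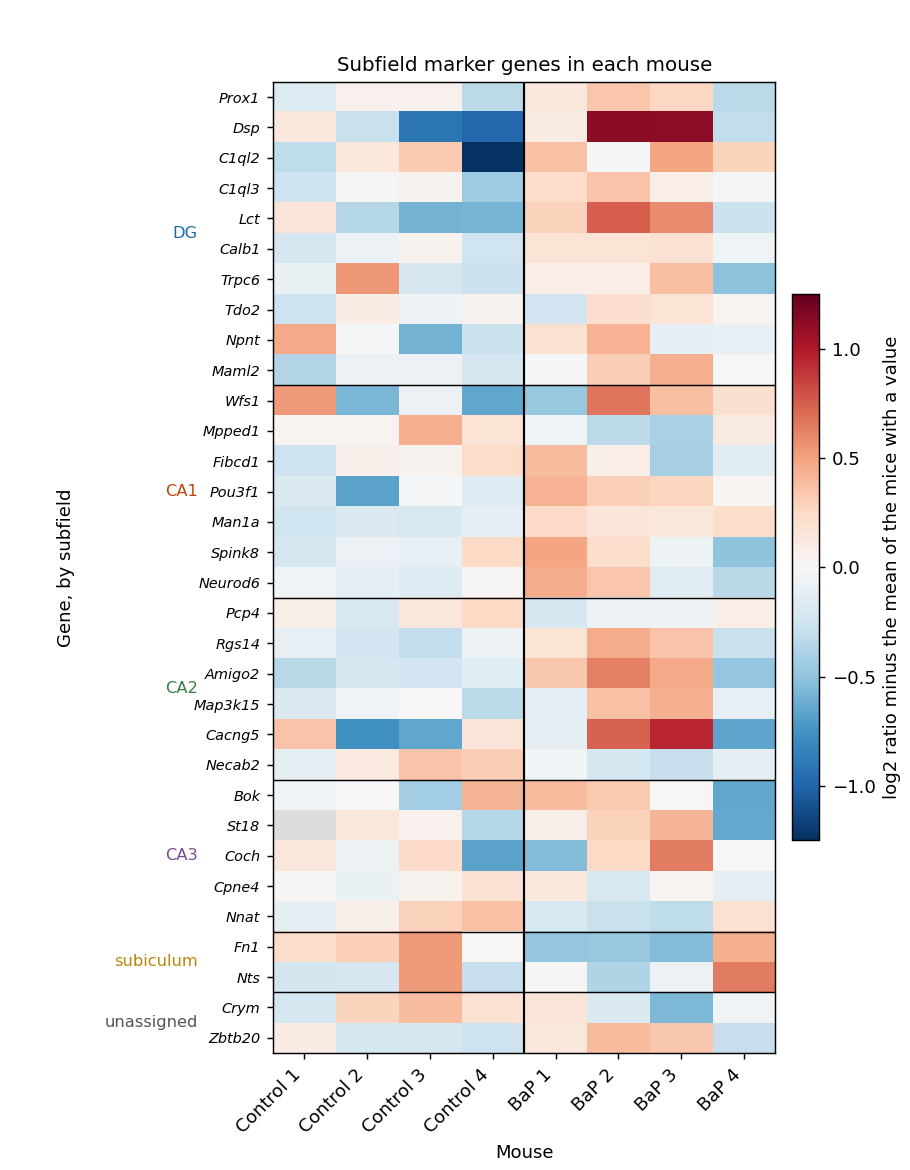
Deviation of each marker (rows, by subfield) from its own mean over the mice (columns), on the log2 scale, with the missing *St18* value in gray. The columns of BaP mice 2 and 3 are mostly red for DG and CA2 markers, and the column of BaP mouse 4 is inside the control range at 20 of the 32 markers, where this held for 63.9% of all probes.

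Per mouse, the markers of a subfield were averaged as deviations from their 8-mouse means. The DG average was -0.092, 0.0016, -0.20 and -0.45 in the control mice and 0.13, 0.37, 0.36 and -0.13 in the BaP-exposed mice, so only BaP mouse 4 overlapped with the controls. For CA2 it was -0.054, -0.23, -0.12 and 0.027 against 0.0025, 0.32, 0.31 and -0.26. For CA1 it ran from -0.22 to -0.011 in control mice and from -0.061 to 0.21 in BaP-exposed mice, and for CA3 from -0.013 to 0.040 and from -0.24 to 0.16. The CA3 averages of the control mice were thus nearly level, while those of the BaP-exposed mice were spread. Single CA3 markers were not level in control mice: *Bok* ran from 0.48 to 1.33 and *Coch* from 0.49 to 1.40. Control mouse 4 was the highest control mouse for *Bok* and the lowest for *Coch*. For the subiculum, control mouse 3 and BaP mouse 4 were highest at 0.53 and 0.54.

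The DG average minus the CA3 average was the only one of the 10 differences between subfields that separated the groups. It was -0.089, -0.0086, -0.24 and -0.44 in the control mice and 0.16, 0.30, 0.21 and 0.11 in the BaP-exposed mice. Here BaP mouse 4 was above the controls, since its CA3 average (-0.24) was lower than its DG average (-0.13). The DG minus CA1 difference ran from -0.42 to 0.22 in control mice and from -0.080 to 0.40 in BaP-exposed mice. These averages rest on chosen genes and are given without a test.

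**Figure D4:**
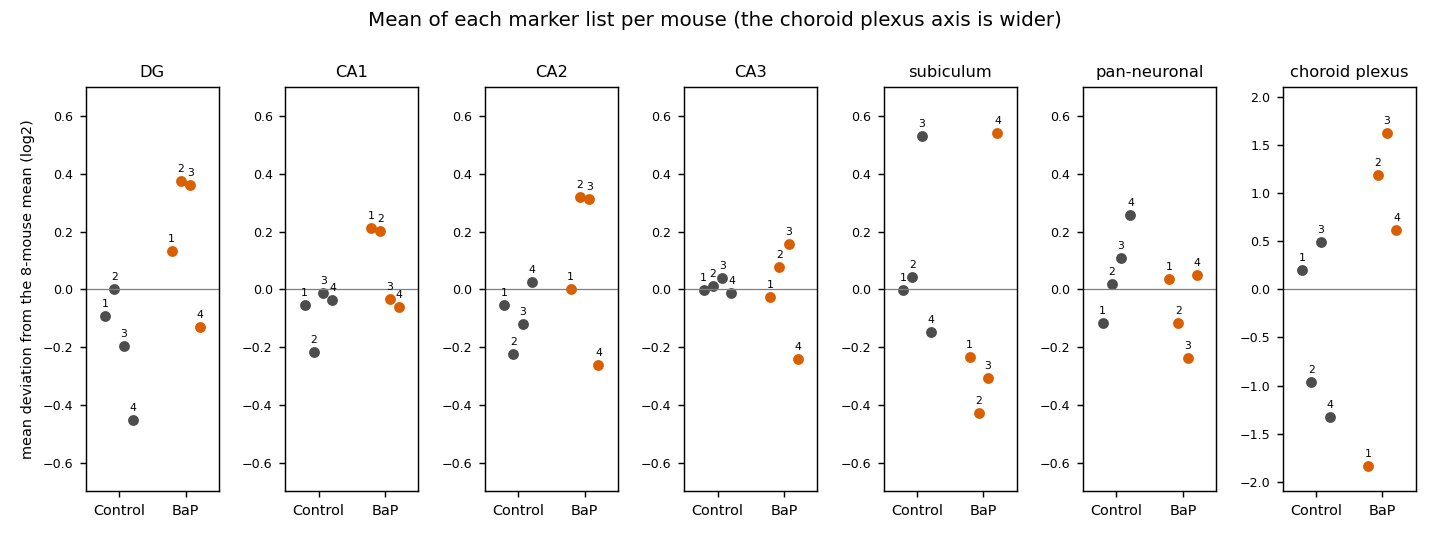
Mean deviation from the 8-mouse mean on the log2 scale (y axis) for the markers of each subfield, pan-neuronal genes and choroid plexus genes, 1 numbered point per mouse. BaP mice 2 and 3 are high for DG, CA2 and choroid plexus, and BaP mouse 1 is the lowest mouse for choroid plexus at -1.84.

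Further markers of the same subfields, outside the 34 genes, were read the same way, and 0 passed the adjusted test. Of 6 tested DG genes, 5 were higher, led by *Sema5a*, a semaphorin, at 0.56 (standard error 0.20, adjusted p = 0.513 from limma). Of 5 tested CA3 genes, 5 were lower. Their average was -0.33, 0.34, 0.29 and 0.22 in the control mice and 0.21, -0.29, -0.19 and -0.31 in the BaP-exposed mice, so control mouse 1 was the lowest of all. The average of the further DG genes was -0.075, 0.039, -0.10 and -0.35 in control mice and 0.011, 0.32, 0.21 and -0.053 in BaP-exposed mice. In control mouse 1 this DG average was above the CA3 average, and in BaP mouse 1 it was below. DG minus CA3 thus did not separate the groups in these further lists. *Grik4*, a kainate receptor subunit of mossy fiber synapses, was at 6.18, 6.11 and 6.19 in control mice 2 to 4 and at 5.82, 5.58, 5.41 and 5.25 in the BaP-exposed mice, with a difference of -0.64 (standard error 0.13, adjusted p = 0.368 from limma). Its value for control mouse 1 was missing as an outlier spot, and the exact permutation p over the 7 mice, 2-sided, was 0.0571. Of the further CA1 genes, 3 were higher and 2 lower, and of the further CA2 genes 3 and 3.

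Markers of other cells and regions were read beside these lists. Choroid plexus genes, 10 of 10 tested, were higher in BaP-exposed mice with 0 at an unadjusted p of 0.05 or less. Their average ran from -1.33 to 0.49 in control mice and from -1.84 to 1.63 in BaP-exposed mice, and their mean log2 level from 2.07 to 3.89 and from 1.56 to 5.03. *Ttr*, transthyretin, the defining gene of that tissue, was above the reference in all 8 mice. BaP mice 2 and 3 were highest and control mouse 4 was among the lowest for both the choroid plexus and the DG lists, but BaP mouse 1 was lowest for choroid plexus and above the controls for DG. The part of this tissue in the DG values was not tested. Pan-neuronal genes ran from -0.12 to 0.26 in control mice and from -0.24 to 0.050 in BaP-exposed mice, with 3 of 8 higher. The neocortex list had 3 of 8 genes higher, the thalamus list 2 of 6, the striatum list 3 of 8, the inhibitory neuron list 2 of 8 and the hilar mossy cell list 2 of 5. Both further subiculum genes were higher, by a median of 0.13.

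Among glial and vascular lists, 1 of 6 astrocyte genes, 4 of 6 oligodendrocyte genes, 3 of 6 microglia genes, 4 of 6 endothelium genes and 2 of 6 meningeal fibroblast genes were higher, and 0 passed the adjusted test. *Cldn5*, the tight junction protein claudin-5 of brain endothelium, was lower without overlap, by a log2 difference of -0.57 (standard error 0.079, adjusted p = 0.138 from limma), an adjusted p below that of any marker of a subfield. Of the same list *Slco1a4* (0.35), *Ly6c1* (0.33) and *Tek* (0.26) were higher at an unadjusted p of 0.05 or less, with overlapping groups. *Cnp* and *Mog*, genes of myelin, were at 0.49 (standard error 0.15) and 0.41 (standard error 0.19). Both were highest in BaP mouse 2, then in BaP mouse 3, and lowest in control mouse 4, as *Prox1* and *Dsp* were among the DG markers. The oligodendrocyte average ran from -0.13 to 0.071 in control mice and from -0.066 to 0.22 in BaP-exposed mice, and its part in the DG values was not tested.

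The 3 markers without overlap and the 2 with a difference of at least 1.5-fold were also read within each slide row, which compares 2 mice with 2. *Man1a* gave 0.41 and 0.33, *Maml2* 0.37 and 0.37, and *Pou3f1* 0.79 and 0.24 in rows 1 and 2. *Dsp* gave 0.69 and 1.34, and *Lct* 0.61 and 0.75. The DG mean was 0.30 and 0.44 in the rows. All of these were above 0 in both rows. For the 3 markers without overlap this was fixed by how they were chosen. *Dsp* and *Lct* were chosen for the size of their differences, so their rows are no separate check either. With groups taken from the source names, which turns the labels of row 2 around, the DG mean was -0.072.

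**Figure D5:**
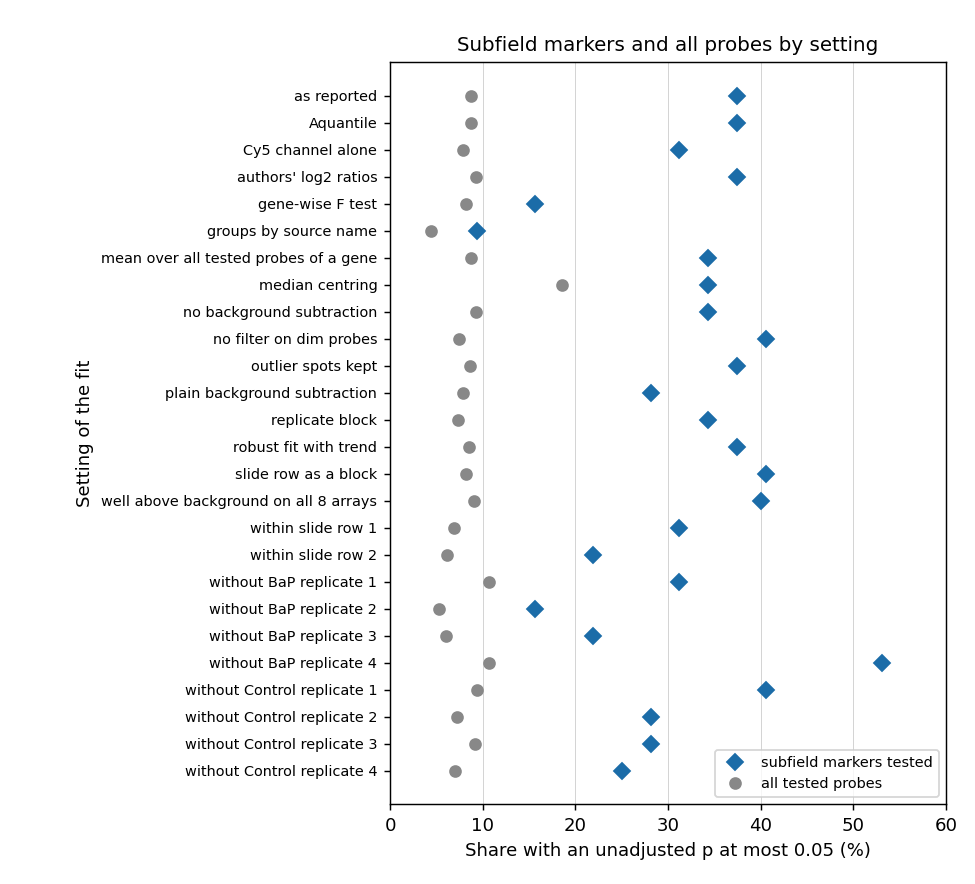
Share of the tested markers (diamonds) and of all tested probes (circles) with an unadjusted p of 0.05 or less (x axis, percent) under each setting of the fit (y axis). The markers lie at 37.5% and all probes at 8.77% as reported, and the marker share is lowest with groups taken from the source names. The markers were chosen with earlier results of these data known, so the shares are given without a test.

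BaP activates the aryl hydrocarbon receptor, which binds DNA at a core of GCGTG with its partner ARNT. The core was searched on both strands, so as GCGTG or CACGC, in the 250 bases before each start in a RefSeq table of promoters on GRCm38.p6. It was in 9 of 32 promoters of the 26 markers with an entry (28.1%) and in 9250 of 32851 promoters of all genes (28.2%). The promoters of the markers with the largest differences or without overlap of the groups are shown, 5′ to 3′ on the strand of the gene, with the core in capitals. They are from *Dsp* (chr13:38151044-38151293, plus strand), *Lct* (chr1:128328319-128328568, minus strand), *Maml2* (chr9:13297708-13297957, plus strand, the first of its entries) and *Man1a* (chr10:54075738-54075987, minus strand), and *Pou3f1* is named only.
Dsp: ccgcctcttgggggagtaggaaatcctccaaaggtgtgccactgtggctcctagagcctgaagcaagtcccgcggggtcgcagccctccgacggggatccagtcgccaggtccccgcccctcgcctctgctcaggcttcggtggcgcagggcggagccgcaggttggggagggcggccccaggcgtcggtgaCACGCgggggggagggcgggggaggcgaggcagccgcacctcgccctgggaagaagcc
Lct: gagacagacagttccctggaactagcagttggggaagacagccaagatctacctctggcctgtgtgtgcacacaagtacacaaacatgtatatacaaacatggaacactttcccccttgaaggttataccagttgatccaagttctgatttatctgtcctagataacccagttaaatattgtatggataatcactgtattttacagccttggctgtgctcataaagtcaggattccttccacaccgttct
Maml2: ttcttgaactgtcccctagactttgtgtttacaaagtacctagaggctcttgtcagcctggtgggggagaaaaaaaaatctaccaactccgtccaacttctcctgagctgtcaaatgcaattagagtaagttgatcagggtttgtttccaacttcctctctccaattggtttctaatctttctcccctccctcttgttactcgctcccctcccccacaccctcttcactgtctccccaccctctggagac
Man1a: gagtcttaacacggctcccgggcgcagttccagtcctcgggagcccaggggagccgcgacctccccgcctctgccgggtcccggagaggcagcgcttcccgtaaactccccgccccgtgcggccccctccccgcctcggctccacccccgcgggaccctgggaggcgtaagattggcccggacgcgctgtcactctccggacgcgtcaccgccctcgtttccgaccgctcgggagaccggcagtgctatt
Of these, the *Dsp* promoter held the core 1 time, and the others 0 times. A match is a stretch of letters and was not tested as a binding site.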

How the data were processed

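Hippocampal RNA of 4 control and 4 BaP-exposed mice, 1 array each, was read from the deposited scanner files, which hold the intensity of every spot as medians in both channels. The authors also deposited a table of log2 ratios, described as LOWESS-normalized. The scanner software, Agilent Feature Extraction, also gave the deposited log10 ratios of Cy5 over Cy3, which were not used for any value here. The labels name 5 animals in each group, of which 4 have an array here.

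The background was corrected with normexp (offset 50), control spots were dropped, outlier spots were treated as missing, loess was applied to the log2 ratios of each array and spots of a probe were averaged. The groups were compared with limma 3.58.1 (lmFit and eBayes) under R 4.3.3, with Benjamini-Hochberg adjustment over 32600 probes. Exact permutation tests were 2-sided over the 70 assignments of the 8 mice. Summaries used Python 3.11.15, pandas 2.3.3 and numpy 2.4.6. The fit was tested on simulated data.

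Of 28685 probes with a RefSeq accession, 27235 (94.9%) were named through a RefSeq table of GRCm38.p6, used for names and promoters alone. The members and lists were chosen with earlier results of these data known. Values per mouse are given for markers with an unadjusted p of 0.05 or less, no overlap of the groups or a 1.5-fold difference, and for *Prox1*, *Wfs1*, *Rgs14*, *Bok*, *Fn1* and *Zbtb20* in any case. *Sema5a*, *Grik4*, *Cldn5*, *Slco1a4*, *Ly6c1*, *Tek*, *Cnp* and *Mog* were named after their values were seen.

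The number of arrays limits the precision, and for dim probes the signal: the median Cy5 signal was 108 to 174 per array over a background of 67 to 71. Alternatives covered background correction, normalization, the channel, filters, the test, blocks, slide rows, probes, labels and each mouse left out. Lists of other cells and regions were read in the same fit.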

Additional observations from a re-analysis of the deposited data

Results flagged for a closer look

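In 4 of 79 groups of 4 values, 1 mouse stood far from the other 3, where chance gives such a gap in about 1 in 20 groups. The groups were those of each marker and of each subfield average. For *Calb1*, BaP mouse 4 was at 1.46, against 1.69 to 1.71 in the other BaP-exposed mice. For *Fn1*, BaP mouse 4 was at -3.86, against -4.84 to -4.77 in the others. For *Nts*, control mouse 3 was at 2.53, and the rest of its group at 1.70 to 1.78. For *Zbtb20*, control mouse 1 was at 2.84, and the rest of its group at 2.49 to 2.54.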

How the results depend on the processing

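Under all 25 alternatives 0 markers passed the adjusted test, with a lowest adjusted p of 0.100 from limma without BaP mouse 4. The count of markers at an unadjusted p of 0.05 or less was 5 with the gene-wise F test (8.22% of all probes), 3 with groups from the source names (4.39%) and 7 within slide row 2 (6.14%). It was 5 to 17 when a mouse was left out, with 5.31% to 10.7% of all probes (5 without BaP mouse 2, 17 without BaP mouse 4). Of the 32 markers, 11 kept their direction under every alternative that gave them a value, and 20 did so with the source names set aside. *Tdo2* and *Coch* had no value where probes had to be well above background on all 8 arrays.

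With groups from the source names the DG mean was -0.072, and the direction turned for *Dsp* (-0.32), *C1ql2* (-0.29), *Lct* (-0.066), *Trpc6* (-0.16), *Tdo2* (-0.021), *Npnt* (-0.12), *Wfs1* (-0.27), *Mpped1* (0.12), *Fibcd1* (0.37), *Pcp4* (0.051), *Map3k15* (-0.051), *Necab2* (0.21), *Coch* (-0.37), *Cpne4* (0.078), *Nnat* (0.090), *Nts* (-0.062) and *Crym* (0.27). This setting regroups the 4 arrays of slide row 2, so it opposes row 1 to row 2 by construction. With median centering the CA1 mean was 0.35, and *Fibcd1* (0.12), *Pcp4* (0.11), *Cpne4* (0.15) and *Nnat* (0.016) turned, all 4 to values below the median of all probes there, 0.17. With the Cy5 channel alone *Npnt* (-0.060), *Fibcd1* (0.0033), *Pcp4* (0.22) and *Cpne4* (0.11) turned. *Fibcd1* also turned with the deposited log2 ratios (0.051), without background subtraction (0.032) and with plain subtraction (0.048), where *Trpc6* (-0.24) and *Coch* (-0.044) did too. With the mean over probes, *Cpne4* was at 0.027.

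Within slide row 1, which holds the 4 arrays without conflicting labels and so serves as both alternatives, the CA1 mean was 0.34, and *Trpc6* (-0.15), *Fibcd1* (0.33), *Coch* (-0.19) and *Cpne4* (0.00096) turned. Within slide row 2 the CA1 mean was -0.024, and *Spink8* (-0.36), *Neurod6* (-0.16) and *Bok* (-0.32) turned. Leaving out 1 mouse gave -0.11 to 0.19 for *Trpc6*, -0.18 to 0.094 for *Fibcd1*, -0.059 to 0.32 for *St18*, -0.021 to 0.38 for *Coch*, -0.080 to 0.25 for *Spink8*, -0.10 to 0.26 for *Bok* and -0.096 to 0.30 for *Nts*. Without a change of direction, it moved the value by over 1.5 times for 12 more markers, among them *Npnt* (0.041 to 0.40), *Tdo2* (0.023 to 0.19), *Crym* (-0.44 to -0.18), *Map3k15* (0.19 to 0.38), *Pcp4* (-0.21 to -0.065) and *Cpne4* (-0.13 to -0.025). The cause of these shifts was not tested. Aquantile scaling leaves log ratios as they are.

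The replicate numbers of the titles did not pair the mice: deviations of same-numbered mice correlated at -0.354 to 0.0313. With the replicate number as a block, 11 markers (7.3% of all probes) had an unadjusted p of 0.05 or less, 0 passed the adjusted test, and 3 of all probes did.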
